A study of Canis lupus familiaris with 12 samples.

Results

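The genes of oxidative phosphorylation, the set of protein complexes with which mitochondria make ATP, were examined as 2 classes in RNASeq of MDCKII cells, an epithelial line from dog kidney. The members were chosen by gene symbol and not by measured values, though earlier results of these data were known then. The mitochondrial class holds the 13 protein-coding genes of mitochondrial DNA, and the nuclear class holds the listed genes whose symbols start with NDUFA, NDUFB, NDUFC, NDUFS, NDUFV, UQCR, COX4 to COX8, or ATP5, without the NDUFAF assembly factors. They were 73 of the 13672 genes listed, 13 mitochondrial and 60 nuclear. Of these, 72 passed the filter of more than 1 CPM (counts per 1000000 reads) in at least 3 libraries and were tested with the other genes that passed, 12650 in all. The exception was COX4I2, a tissue-restricted isoform of complex IV, at 0.232 to 1.06 CPM across the 12 libraries. Subunits outside the listed symbols were not members of either class, and those in other lists, such as complex II, are given by counts.

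Complexes I, III, and IV pass electrons from NADH and ubiquinone to oxygen and pump protons across the inner mitochondrial membrane, and complex V (ATP synthase) uses the proton gradient to make ATP. Each of these 4 complexes is assembled from subunits of both genomes, so the nucleus and the mitochondria both supply mRNAs for one machine. Mitochondrial DNA is transcribed as long polycistronic RNAs that are cut into single mRNAs, and their levels depend on transcription, processing, and stability inside the organelle, whereas each nuclear gene has its own promoter. Kidney tubule epithelium is known for a high demand for mitochondrial ATP. The listed members were assigned to complexes by the start of their symbols alone. By this rule 7 mitochondrial and 37 nuclear genes were counted for complex I (NADH dehydrogenase) and 1 and 5 for complex III (cytochrome bc1). For complex IV (cytochrome c oxidase) they were 3 and 6, and for complex V 2 and 12. A gene named for 1 complex but working in another is counted by its name.

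The cells were WT, CGN-KO, CGNL1-KO, and CGN_CGNL1-dKO (called dKO here). CGN (cingulin) and CGNL1 (paracingulin) are junctional proteins, and the KO cells were made with CRISPR/Cas9. All cells were untreated, and each genotype has 3 libraries from 1 line, so a difference between genotypes and a difference between lines cannot be told apart. The labels do not say that the libraries of a genotype come from separate cultures, so p-values measure the spread between these libraries, which may be technical. The column of 1 dKO library carries no replicate number and is called unnumbered. Libraries held 16837532 to 30086076 reads in the listed genes, with CGN-KO 1 as the deepest. Each mitochondrial member had between 2246 and 619962 reads per library, and each nuclear member that passed the filter had between 107 and 44173. CGN was at 199 to 233 CPM in WT, 47.0 to 56.5 CPM in CGN-KO, and 39.7 to 45.3 CPM in dKO cells, and CGNL1 was at 7.74 to 12.3 CPM in WT, 1.76 to 3.02 CPM in CGNL1-KO, and 1.11 to 1.76 CPM in dKO cells, so the targeted gene was lower without overlap in each KO genotype. CGNL1 was also lower in CGN-KO than in WT cells, at 5.04 to 6.92 CPM. All 7 epithelial and 5 renal tubule markers were listed (CDH16, a kidney cadherin, at 0.828 to 5.14 CPM), 0 of 3 fibroblast and 0 of 2 endothelial markers were listed, and of 2 immune markers CD68 was listed, at 0.560 to 1.34 CPM.

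The mitochondrial class was lower in CGN-KO and dKO cells and the nuclear class was not. The 13 mitochondrial mRNAs together stood at 70954, 68485, and 78147 CPM in WT libraries 1, 2, and 3, and at 64819, 48674, and 54905 CPM in CGN-KO libraries 1, 2, and 3. They stood at 57796 CPM in the unnumbered dKO library and at 58477 and 49931 CPM in dKO libraries 2 and 3. Every CGN-KO and every dKO library was thus below every WT library, with group means of 56133 ± 8142 and 55401 ± 4749 CPM against 72529 ± 5020 CPM (SD, n = 3 each), which are 0.774 and 0.764 times the WT mean. The CGNL1-KO libraries, at 75907, 62480, and 83206 CPM (mean 73864 ± 10513 CPM), lay on both sides of the WT range. The 60 nuclear mRNAs together were at 7918 ± 175 CPM in WT, 7986 ± 117 CPM in CGN-KO, 8054 ± 161 CPM in CGNL1-KO, and 8003 ± 196 CPM in dKO cells, and each KO group overlapped WT. The ratio of the mitochondrial to the nuclear sum was 9.16 ± 0.561 for WT, 7.02 ± 0.931 for CGN-KO, 9.18 ± 1.40 for CGNL1-KO, and 6.92 ± 0.497 for dKO cells, again without overlap between WT and either CGN-KO or dKO. These sums over members were not tested. As shares of all reads, the mitochondrial class took 4.98% to 8.04% and the nuclear class 0.778% to 0.816% of a library. On this measure the nuclear class of CGN-KO cells (0.804% to 0.813%) lay just above WT (0.778% to 0.803%) without overlap. In a bulk sample, fewer cells of a kind and less RNA per cell cannot be told apart.

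**Figure D1:**
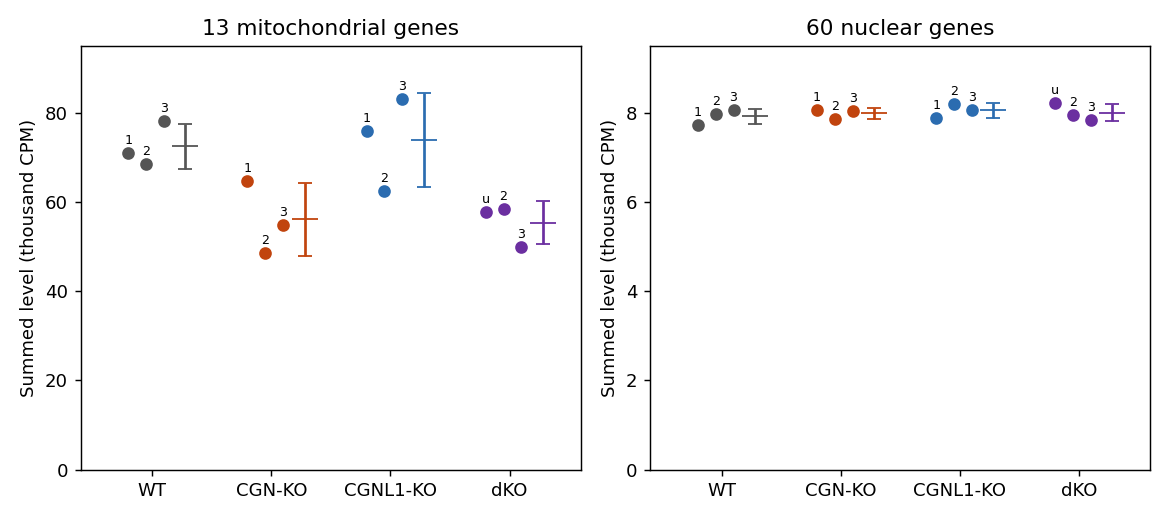
Summed level of the 13 mitochondrial genes (left) and of the 60 nuclear genes (right) in CPM divided by 1000, with 1 point per library labelled by replicate number (u, unnumbered) and bars for the mean ± SD of 3 libraries. The CGN-KO and dKO libraries all lie below the WT libraries on the left, and the 4 genotypes overlap on the right on an axis of its own.

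In CGN-KO cells 7 of 13 mitochondrial members were lower than in WT cells and 0 were higher, at an adjusted p below 0.05 (limma on log2(CPM + 1), Benjamini-Hochberg over all 12650 genes), where 7.87% of all genes tested were called lower and 11.2% higher. The 7 were CYTB, ND1, ND2, ND3, ND4, ND5, and ATP6. All 13 had a log2 change below 0, between −0.94 and −0.22, with a median of −0.38 beside −0.0039 over all genes. In 9 of 13 all CGN-KO values lay below all WT values, a position that 17.5% of all genes held. The largest change was that of CYTB, which encodes cytochrome b, the subunit of complex III that carries the quinone sites. CYTB was at 1380, 1374, and 1537 CPM in WT libraries 1 to 3, at 843, 641, and 764 CPM in CGN-KO libraries 1 to 3, and its log2 change was −0.94 ± 0.09 (SE, adjusted p = 2.0e-06). ND2, a membrane subunit of complex I, was at 2734, 2718, and 3084 CPM in WT and at 2197, 1726, and 1900 CPM in CGN-KO libraries, with a log2 change of −0.56 ± 0.11 (adjusted p = 0.0014). Both genes separated the genotypes with a gap. ND5 and ND4, the proton-pumping subunits at the far end of the membrane arm of complex I, had log2 changes of −0.50 ± 0.11 (adjusted p = 0.0031) and −0.49 ± 0.11 (adjusted p = 0.0050). ND3 had −0.40 ± 0.10 (adjusted p = 0.0099), ATP6, the proton channel subunit of ATP synthase, −0.41 ± 0.12 (adjusted p = 0.029), and ND1 −0.35 ± 0.12 (adjusted p = 0.046). The catalytic core subunits of complex IV, COX1, COX2, and COX3, did not pass the test, although COX3 (log2 change −0.38, adjusted p = 0.059) was called with edgeR, with DESeq2, with the replicate block, and without CGN-KO 1, CGNL1-KO 1, or CGNL1-KO 2, and COX1 without CGN-KO 1. COX1 was at 21537, 20731, and 24035 CPM in WT and at 20440, 14806, and 17006 CPM in CGN-KO libraries, and its log2 change was −0.35 (95% interval −0.69 to −0.01, adjusted p = 0.14). The number of mitochondrial members called was 4 without WT 3 or without CGN-KO 2, and 11 without CGN-KO 1.

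In dKO cells 8 of 13 mitochondrial members were lower than in WT cells and 0 were higher, where 11.5% of all genes tested were called lower and 14.8% higher. They were the members called in CGN-KO cells and ATP8, a small membrane subunit of ATP synthase. All 13 log2 changes were below 0, between −1.14 and −0.27, with a median of −0.37 beside −0.00036 over all genes. In 12 of 13, ND4L being the exception, all dKO values lay below all WT values, as in 21.8% of all genes. CYTB was at 642 CPM in the unnumbered library and at 712 and 597 CPM in libraries 2 and 3, a log2 change of −1.14 ± 0.09 (adjusted p = 2.1e-07). It was the member that passed the 2-fold threshold as well, which 1.41% of all genes passed in this comparison. No member passed it in CGN-KO cells (1.31% of all genes), in CGNL1-KO cells (0.617%), or between CGN-KO and CGNL1-KO cells (0.648%). ND2 was at 2131, 2139, and 1822 CPM, with a log2 change of −0.49 ± 0.11 (adjusted p = 0.0028), and ND3 had −0.46 ± 0.10 (adjusted p = 0.0029). ATP6, ND5, ND4, ATP8, and ND1 changed by −0.42 to −0.33 on the log2 scale. COX1, COX2, and COX3, which had values of −0.42, −0.29, and −0.32, did not pass the test (adjusted p = 0.063, 0.089, and 0.093), although COX1 and COX2 were called with edgeR and all 3 with DESeq2 and in a fit of the WT and dKO libraries alone, COX1 without CGN-KO 1, CGNL1-KO 1, or CGNL1-KO 2, and COX3 without CGN-KO 1. CGN-KO and dKO cells were compared with the same WT libraries, so their values are not independent. The number of mitochondrial members called was 3 without WT 3 or without dKO 3, and 13 in a fit of the WT and dKO libraries alone.

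In CGNL1-KO cells 1 of 13 mitochondrial members, CYTB, was lower and 0 were higher, where 3.49% of all genes tested were called lower and 6.81% higher. CYTB was at 1038, 1012, and 1131 CPM, below each WT value, with a log2 change of −0.43 ± 0.09 (adjusted p = 0.0055). It was the mitochondrial member whose values did not overlap with WT (1 of 13 below, where 11.1% of all genes were). The other 12 had log2 changes between −0.16 and 0.15, and the median of the 13 was −0.07 beside −0.0031 over all genes. The spread leaves room for changes of some size in these genes, as the 95% interval was −0.23 to 0.45 for COX1 and −0.34 to 0.11 for ND2. Without CGNL1-KO 2 the median was 0.026.

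Set directly against each other, CGN-KO cells had lower levels than CGNL1-KO cells of CYTB, ND2, ND4, and ND5 (4 of 13), where 2.09% of all genes tested were called lower and 3.09% higher. The log2 differences were −0.51 ± 0.09 for CYTB (adjusted p = 0.0027), −0.44 ± 0.11 for ND2 (adjusted p = 0.021), −0.42 ± 0.11 for ND4 (adjusted p = 0.037), and −0.41 ± 0.11 for ND5 (adjusted p = 0.029). All 13 differences were below 0, with a median of −0.40 beside −0.0038 over all genes. All CGN-KO values lay below all CGNL1-KO values for CYTB, ND1, ND2, and ND4 (4 of 13, where 9.21% of all genes held this position), and those of ND5 overlapped. Libraries of these genotypes with equal numbers deviated from their group means together (correlation across genes 0.179 to 0.632). The mitochondrial members of the libraries numbered 3 did not: 10 of 13 lay below the genotype mean in CGN-KO 3 and 13 of 13 above it in CGNL1-KO 3. A pairing by number is thus not established. When the number was fitted as a block over the 6 libraries, all 13 mitochondrial members passed the test, and 22 members in place of 6. This block was chosen after the correlations were seen, so its calls are not a separate test of the difference. Calls rose over the whole table in that fit, to 7.06% of all genes lower and 8.4% higher, and of the 59 nuclear members 4 were lower and 5 higher. The number of mitochondrial members called was 1 (CYTB) without CGN-KO 2, CGN-KO 3, or CGNL1-KO 3, was 8 without CGNL1-KO 2, and was 10 without CGN-KO 1. Of the nuclear members 1 was higher and 1 lower, and 4 were called in all without CGNL1-KO 1.

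**Figure D2:**
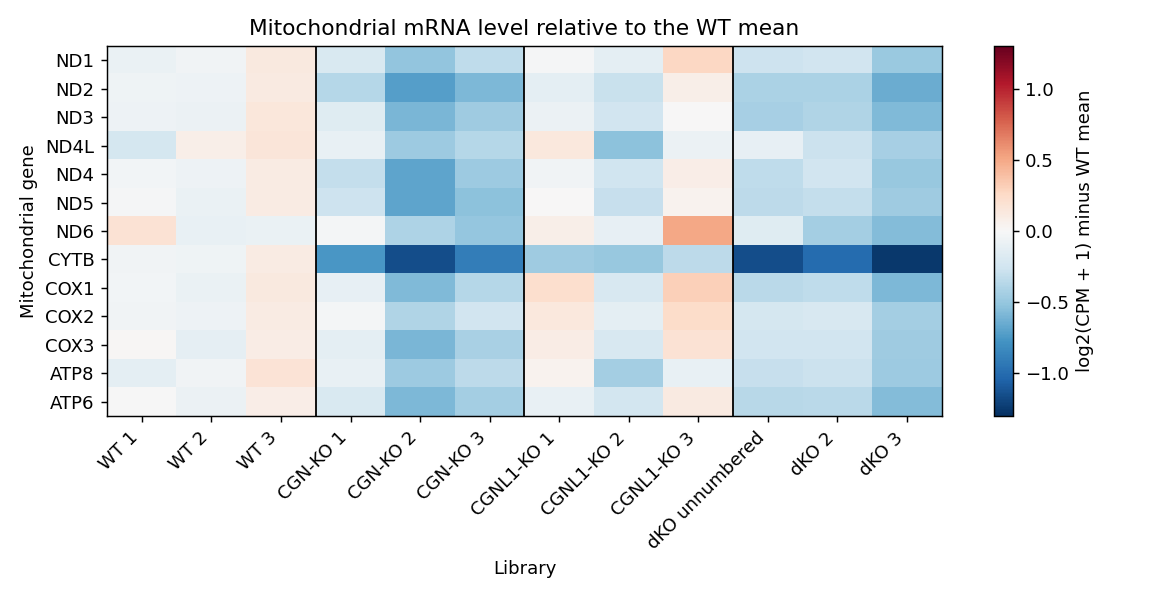
Level of each of the 13 mitochondrial mRNAs in each library as the difference in log2(CPM + 1) from the WT mean, ordered by complex I, III, IV, and V (blue, below the WT mean). CYTB is the gene farthest below WT in every CGN-KO and dKO library and is also below it in the 3 CGNL1-KO libraries.

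CYTB changed more than the mitochondrial class as a whole, so its share of the class was examined. CYTB made up 1.94%, 2.01%, and 1.97% of the summed mitochondrial CPM in WT libraries 1, 2, and 3. It made up 1.30%, 1.32%, and 1.39% of it in the CGN-KO libraries, 1.37%, 1.62%, and 1.36% in the CGNL1-KO libraries, and 1.11% (unnumbered), 1.22%, and 1.20% in the dKO libraries. Each of the 9 KO libraries was below each WT library, and the dKO libraries were below all others. As the share divides by the other mitochondrial mRNAs of the same library, it does not depend on the scaling of the CPM. The group means were 1.97% ± 0.0312 for WT, 1.34% ± 0.0486 for CGN-KO, 1.45% ± 0.148 for CGNL1-KO, and 1.17% ± 0.0570 for dKO cells (SD, n = 3 each), and these shares were not tested. The values rest on 12521 to 32159 CYTB reads per library.

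**Figure D3:**
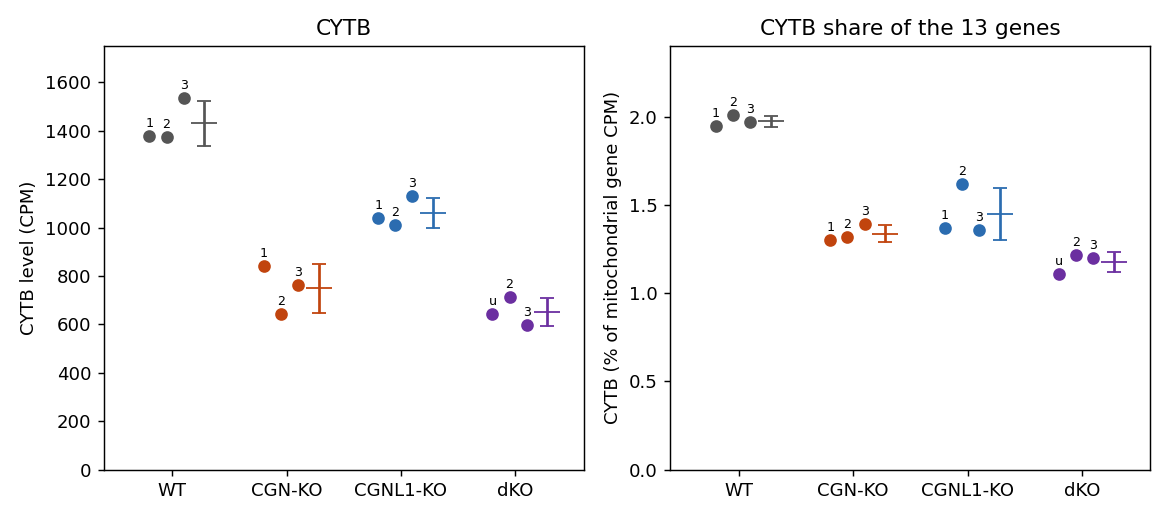
CYTB level in CPM (left) and CYTB as a percentage of the summed CPM of the 13 mitochondrial genes (right), with 1 point per library labelled by replicate number (u, unnumbered) and bars for the mean ± SD of 3 libraries. On both axes every KO library lies below the WT libraries.

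The other parts of the mitochondrial pool shifted less. ND2 took 3.92% ± 0.0614 of the pool in WT cells and 3.47% ± 0.0787, 3.58% ± 0.138, and 3.66% ± 0.0197 in CGN-KO, CGNL1-KO, and dKO cells, below WT in every library. COX2, a copper-binding subunit of complex IV, took 12.5% ± 0.129 in WT and 13.9% ± 0.242, 13.03% ± 0.225, and 13.3% ± 0.0297 in the same order, above WT in every library. CYTB, ND2, and COX2 were the members whose share did not overlap with WT in any of the 3 KO genotypes. The shares of ND4 and ND5 were below WT in both single KOs, at 6.44% and 6.54% for ND4 against 6.96% and at 2.53% and 2.56% for ND5 against 2.75%, and overlapped with WT in dKO cells (7.12% and 2.79%). In dKO cells the shares of COX3 and ND1 lay above and that of COX1 below WT, and in CGNL1-KO cells that of ND3 lay below. The shares of ATP6, ATP8, ND6, and ND4L overlapped with WT in every KO genotype. The reading frames of ATP8 and ATP6 and of ND4L and ND4 overlap on shared mRNAs, ND6 lies on the opposite strand, and copies of mitochondrial DNA in the nuclear genome can share reads with the mitochondrial genes, so the split of reads among these genes depends on how overlapping and multiply mapped reads were counted, which is not given in the sources used here.

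Mitochondrial mRNAs varied together between libraries of 1 genotype. The SD of log2(CPM + 1) within genotypes had a median of 0.154 over the 13 mitochondrial members, 0.0768 over the 59 nuclear members tested, 0.104 over all genes, and 0.0743 over the 1085 genes with a mean level at or above the lowest mitochondrial member. In CGN-KO 1 and CGNL1-KO 3 all 13 mitochondrial members were above their genotype mean, and in CGN-KO 2, CGNL1-KO 2, and dKO 3 all 13 were below it. In WT 3, 12 of 13 were above. The nuclear members followed in part. Of the 59, 43 were above the genotype mean in WT 3 and 41 in CGN-KO 1, and 20 were above it in CGN-KO 2 and 18 in dKO 3, whereas 29 were above it in CGNL1-KO 2 and also in CGNL1-KO 3. The 13 mitochondrial genes are thus not 13 separate measurements of a genotype, and the counts above are carried by the same 3 libraries per group. CGN-KO 1, the deepest library, had the highest mitochondrial sum of its genotype, and a part of depth in this was not tested.

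**Figure D4:**
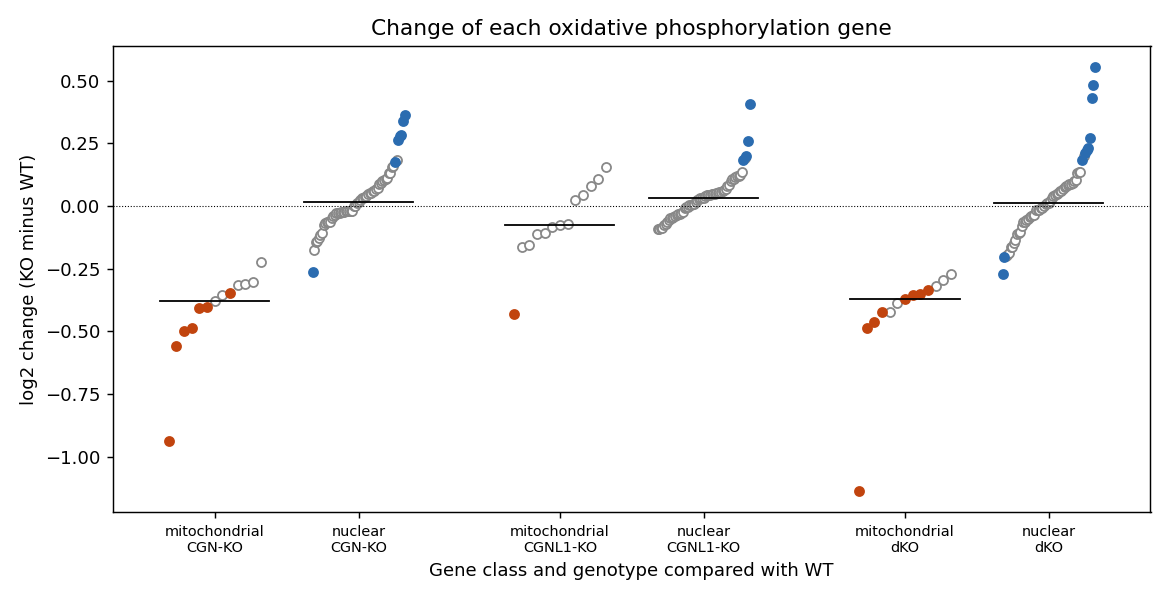
Change of each member on the log2(CPM + 1) scale, KO minus WT, for the 13 mitochondrial and 59 nuclear members tested in each KO genotype, ordered by size within each class. Filled points passed an adjusted p of 0.05 and open points did not, and the line is the median of the class. The mitochondrial medians are −0.38, −0.07, and −0.37 and the nuclear medians 0.015, 0.034, and 0.014.

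The nuclear members as a class stayed near 0. In CGN-KO cells 6 of 59 were higher and 1 was lower, in CGNL1-KO cells 4 were higher and 0 lower, and in dKO cells 8 were higher and 2 lower, shares that are close to or below those of all genes given above. The median log2 changes were 0.015, 0.034, and 0.014. All 3 KO values lay above WT in 14, 10, and 13 of 59 members (18.4%, 13.3%, and 23.2% of all genes). They lay below WT in 4, 0, and 7 of 59, where 17.5%, 11.1%, and 21.8% of all genes did. In the test across the 4 genotypes, 10 of 13 mitochondrial and 13 of 59 nuclear members differed, where 29.9% of all genes tested did. In that test 5 mitochondrial members differed without dKO 3, and the nuclear count was 7 without CGNL1-KO 3 or the unnumbered dKO library and 8 without WT 2, CGN-KO 3, or dKO 3. The nuclear members called fell to 3 without WT 1 or CGN-KO 2 and to 4 without CGN-KO 3 in CGN-KO cells, to 1 without WT 1, WT 2, or CGNL1-KO 3 and to 2 without WT 3, CGNL1-KO 1, or CGNL1-KO 2 in CGNL1-KO cells, and to 6 without dKO 3 in dKO cells. In a fit of the WT and dKO libraries alone 16 were called in dKO cells.

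Among the nuclear members of complex I, NDUFB4, an accessory subunit of the membrane arm, rose most. It was at 86.9, 95.2, and 106 CPM in WT libraries 1 to 3, at 124, 124, and 122 CPM in CGN-KO, at 95.5, 100, and 103 CPM in CGNL1-KO, and at 145 (unnumbered), 137, and 141 CPM in dKO libraries. All CGN-KO and dKO values were above all WT values, and the CGNL1-KO values lay within the WT range. The log2 changes were 0.36 ± 0.06 in CGN-KO (adjusted p = 6.6e-04) and 0.55 ± 0.06 in dKO cells (adjusted p = 8.5e-06), and CGN-KO exceeded CGNL1-KO cells by 0.30 ± 0.06 (adjusted p = 0.0078). NDUFS8, which carries iron-sulfur clusters of the electron path, was at 58.5, 64.0, and 65.3 CPM in WT, 78.9, 77.9, and 72.6 CPM in CGN-KO, and 81.4, 81.1, and 91.9 CPM in dKO libraries. Its log2 changes were 0.28 ± 0.08 (adjusted p = 0.018) and 0.43 ± 0.08 (adjusted p = 7.2e-04), without overlap with WT.

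NDUFB11 and NDUFB10, further accessory subunits of the membrane arm, rose by less. NDUFB11 rose in CGN-KO and dKO cells (log2 changes 0.26 and 0.27, adjusted p = 0.033 and 0.022), and NDUFB10 rose in all 3 KO genotypes (0.17, 0.20, and 0.19, adjusted p = 0.042, 0.033, and 0.024). The NDUFB10 calls were lost in 7, 8, and 5 of 15 alternatives, among them the omission of any 1 WT or CGNL1-KO library in CGNL1-KO cells. NDUFV2, a subunit of the NADH-oxidizing module, was at 147, 149, and 139 CPM in WT and 184, 167, and 172 CPM in CGNL1-KO libraries, a log2 change of 0.26 ± 0.06 (adjusted p = 0.0054). NDUFA13 also rose in CGNL1-KO cells (0.18, adjusted p = 0.040, lost in 7 of 15 alternatives), and NDUFS3, a core subunit of the hydrophilic arm, rose in dKO cells (0.23, adjusted p = 0.0097). The falls in complex I were NDUFS4, an accessory subunit linked to assembly of the NADH module, in CGN-KO cells (45.5 ± 5.93 to 37.6 ± 1.35 CPM, log2 change −0.26, adjusted p = 0.032) and NDUFB5 in dKO cells (90.1 ± 10.2 to 74.4 ± 6.25 CPM, log2 change −0.27, adjusted p = 0.037). Of the 37 nuclear complex I members, 4 rose and 1 fell in CGN-KO, 3 rose in CGNL1-KO, and 5 rose and 1 fell in dKO cells. Over all genes tested, 11.2%, 6.81%, and 14.8% were called higher and 7.87%, 3.49%, and 11.5% lower in the same order. The complex I counts are close to or below these shares.

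In complex III, no nuclear member with a listed symbol was called lower in a KO genotype as CYTB was. Of the 5 nuclear members, 0 passed the test in either single KO, with medians of 0.05 and 0.03 on the log2 scale, and in dKO cells UQCRFS1, the Rieske iron-sulfur protein, and UQCR11, a small accessory subunit, rose. UQCRFS1 was at 182, 182, and 176 CPM in WT and at 221 (unnumbered), 203, and 204 CPM in dKO libraries, a log2 change of 0.21 ± 0.06 (adjusted p = 0.016). UQCR11 had a log2 change of 0.22 (adjusted p = 0.039), with overlapping values. The summed level of the 5 nuclear members was 484 ± 11.7 CPM in WT and 520 ± 17.4 CPM in dKO cells, while CYTB was 0.455 times its WT mean there.

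In complex IV, COX8A, a small subunit of the membrane part, was at 88.9, 103, and 109 CPM in WT, 127, 123, and 114 CPM in CGN-KO, and 140 (unnumbered), 136, and 144 CPM in dKO libraries. It rose in both genotypes, by 0.28 ± 0.07 (adjusted p = 0.0091) and 0.48 ± 0.07 (adjusted p = 7.9e-05) on the log2 scale, without overlap with WT. The other 4 nuclear members tested, COX4I1, COX5A, COX5B, and COX7A2L, did not pass the test in any KO genotype. COX5B was at 120 to 127 CPM in WT and at 129 to 140 CPM in the KO libraries. The summed level of the 6 listed nuclear members, COX8A included, was 623 ± 9.73 CPM in WT. It was 658 ± 7.24 CPM in CGN-KO, 656 ± 6.96 CPM in CGNL1-KO, and 669 ± 7.89 CPM in dKO cells. These sums lay above WT without overlap in each KO genotype and were not tested. In complex V, ATP5E, the epsilon subunit of the central stalk, was at 46.4, 44.4, and 51.2 CPM in WT, 71.2, 56.3, and 54.1 CPM in CGN-KO, and 70.5, 53.4, and 66.4 CPM in CGNL1-KO libraries. Its log2 changes were 0.34 ± 0.11 (adjusted p = 0.036) and 0.41 ± 0.11 (adjusted p = 0.022), and 0.20 in dKO cells (adjusted p = 0.19). ATP5C1, the gamma subunit that turns within the catalytic head, fell in dKO cells (339 ± 21.6 to 294 ± 15.9 CPM, log2 change −0.20, adjusted p = 0.045). ATP5G2 is 1 of 3 listed genes (with ATP5G1 and ATP5G3) for the same c-ring subunit, whose near-identical coding stretches can share reads. ATP5G2 was at 104, 105, and 106 CPM in CGN-KO and at 118, 129, and 128 CPM in CGNL1-KO libraries, with a log2 difference of −0.25 ± 0.05 (adjusted p = 0.0068), and ATP5G1 and ATP5G3 did not pass the test. ATP5A1 and ATP5B, the alpha and beta subunits that form the catalytic head, were at 833 to 949 and 1398 to 1550 CPM over all 12 libraries and were called in no comparison.

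The nuclear members that rose were set beside their neighbours on the chromosome, because earlier results of these data include shifts of whole chromosomes. Gene order was taken from RefSeq genes of another dog assembly (UU_Cfam_GSD_1.0), which placed 59 of the 60 nuclear members, so no coordinates are given. The 10 tested genes on 1 side of NDUFB4 (B4GALT4, ARHGAP31, TMEM39A, POGLUT1, TIMMDC1, ADPRH, COX17, GSK3B, LRRC58, and FSTL1) were all higher than WT in CGN-KO and dKO cells, by 0.16 to 1.09 (median 0.45) and by 0.35 to 1.28 (median 0.57) on the log2 scale. Of the 10, 9 passed the test in CGN-KO and 10 in dKO cells, and in CGNL1-KO cells 0 were called higher, 1 (LRRC58) was called lower, and the median was 0.025. Over all genes tested, 11.2% were called higher in CGN-KO, 14.8% in dKO, and 6.81% in CGNL1-KO cells. The 10 genes on the other side, from GTF2E1 to WDR5B, had medians of −0.10, −0.04, and −0.09 in CGN-KO, CGNL1-KO, and dKO cells, and 0 of them was called higher. On that side POLQ was called lower in CGN-KO cells (−0.28), and ILDR1 in CGNL1-KO (−0.50) and dKO cells (−0.42). NDUFB4 thus stood at the edge of a run of genes that rose with it in the same 2 genotypes. The run also holds COX17, a copper chaperone for complex IV (log2 changes 0.56 and 0.73), and TIMMDC1, a complex I assembly factor (0.32 and 0.48). The neighbours were examined after the values of NDUFB4 were seen, and over the placed nuclear members the median of the neighbour medians was −0.02 in CGN-KO and 0.002 in dKO cells for the same side. The part of a shared chromosomal cause was not tested.

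**Figure D5:**
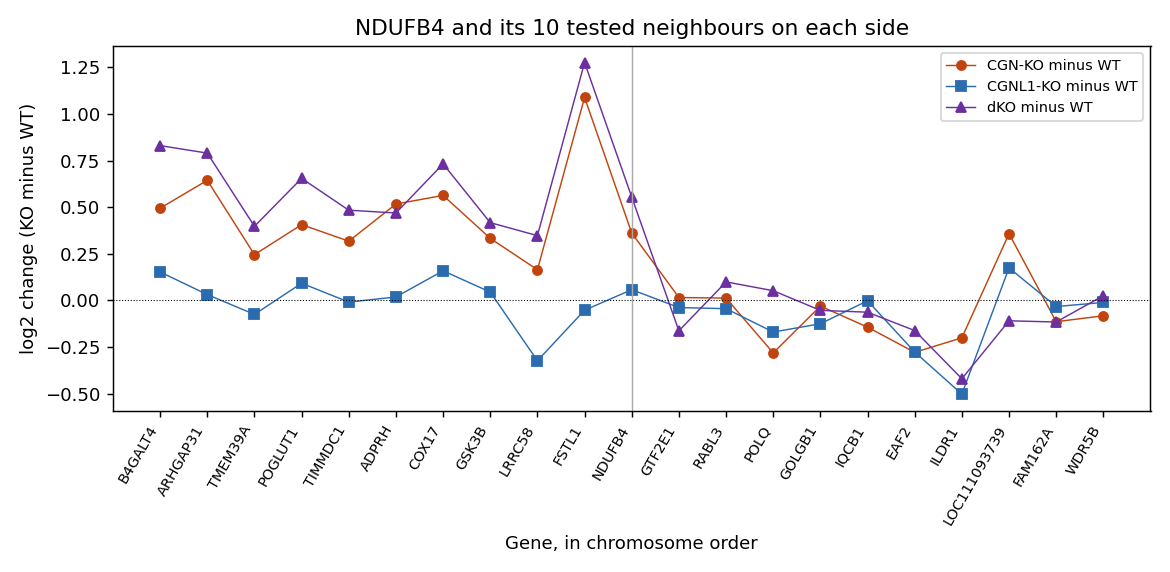
Change of NDUFB4 and of the 10 tested genes on each side of it on the log2(CPM + 1) scale, KO minus WT, in chromosome order, for the 3 KO genotypes. The genes to the left and NDUFB4 itself are above 0 in CGN-KO and dKO cells, and the genes to the right have medians of −0.10 and −0.09.

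Some other risers lay among neighbours that were higher in the same genotype. The chromosome of CTNND1 holds COX8A, NDUFS3, NDUFS8, and NDUFV1. In dKO cells 3 of these 4 were called higher, all 4 had every value above WT, and their median log2 change was 0.33, while the 398 genes tested on this chromosome had a median of 0.30, with 264 called higher. In CGN-KO cells, where COX8A and NDUFS8 were also called, these 398 genes had a median of 0.09, with 73 called higher. Over all genes tested, 14.8% were called higher in dKO and 11.2% in CGN-KO cells. UQCRFS1 and NDUFA3 lie on the chromosome of MYH14, whose 688 genes tested had a median of 0.20 in dKO cells. ATP5E lies on the chromosome of MYL9, whose 318 genes tested had medians of 0.19, 0.20, and 0.14 in CGN-KO, CGNL1-KO, and dKO cells, and its 10 neighbours on either side had medians of 0.37 and 0.41 in CGN-KO and of 0.43 and 0.32 in CGNL1-KO cells. NDUFB10, NDUFB11, and NDUFV2 were of the other kind, with neighbour medians between −0.21 and 0.08 in the genotypes in which they rose. Without the members on these 3 chromosomes, 4 of 52 nuclear members were higher and 2 were lower in dKO cells, with a median of −0.0046, where 10.7% and 12.5% of all genes not on these chromosomes were higher and lower.

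The other genes that serve these complexes are given by counts, to be read against all genes tested, of which 11.2% were called higher and 7.87% lower for CGN-KO, 6.81% and 3.49% for CGNL1-KO, and 14.8% and 11.5% for dKO cells. In lists this short, 1 gene more or fewer than these shares is not a result about a list. Of the 15 genes tested for transcription and replication of mitochondrial DNA, 1 rose and 1 fell in CGN-KO, 1 rose in CGNL1-KO, and 1 rose and 2 fell in dKO cells. The riser was MGME1, a mitochondrial exonuclease, in all 3 genotypes (log2 changes 0.66, 0.67, and 0.55, adjusted p = 1.1e-05, 1.8e-05, and 5.0e-05), and it lies on the chromosome of MYL9. TFB2M, the factor that opens mitochondrial promoters, fell from 62.6 ± 4.21 CPM in WT to 52.9 ± 1.71 CPM in CGN-KO and 51.0 ± 1.49 CPM in dKO cells (log2 changes −0.24 and −0.29, adjusted p = 0.0095 and 0.0018) and did not pass the test in CGNL1-KO cells. TFAM, which packages mitochondrial DNA, POLRMT, the mitochondrial RNA polymerase, and LRPPRC and SLIRP, which stabilize mitochondrial mRNAs, passed the test in no comparison. Their log2 changes from WT were between −0.17 and 0.20.

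Of the 15 genes tested for processing and stability of mitochondrial mRNAs, 0 rose in any KO genotype. In CGN-KO, CGNL1-KO, and dKO cells 3, 0, and 4 fell, where 7.87%, 3.49%, and 11.5% of all genes were called lower. The list is short, and its difference from these shares was not tested. FASTKD1, an RNA-binding protein, had the largest fall in CGN-KO cells (25.7 ± 0.914 to 19.8 ± 1.40 CPM, log2 change −0.36, adjusted p = 0.0039), and KIAA0391, the nuclease subunit of mitochondrial RNase P, in dKO cells (19.4 ± 0.371 to 15.8 ± 1.38 CPM, log2 change −0.28, adjusted p = 0.012). Of 75 mitochondrial ribosomal protein genes, 1 rose and 7 fell in CGN-KO, 1 rose in CGNL1-KO, and 5 rose and 8 fell in dKO cells, so that falls were near the share of all genes and rises below it. Of the assembly factors tested, 2 rose and 2 fell in CGN-KO, 1 rose in CGNL1-KO, and 2 rose in dKO cells for complex I (14 genes). For complex III (3 genes) 1 rose in dKO cells, and for complex IV (15 genes) 2 rose and 1 fell in CGN-KO, 1 rose in CGNL1-KO, and 2 rose and 1 fell in dKO cells. For complex V (4 genes) 2 fell in CGN-KO and 1 fell in dKO cells. The largest rises were those of NDUFAF5 in all 3 genotypes (log2 changes 0.60, 0.64, and 0.61), which lies on the chromosome of MYL9, and those of COX17 given above. Among 7 regulators of nuclear oxidative phosphorylation genes, GABPA, the DNA-binding subunit of nuclear respiratory factor 2, fell in all 3 genotypes (log2 changes −0.38, −0.32, and −0.31, adjusted p = 0.0011, 0.0082, and 0.0037). ESRRA, a nuclear receptor that acts with PGC-1 coactivators, rose in dKO cells (0.18, adjusted p = 0.034). ESRRA lies on the chromosome of CTNND1, whose 398 genes tested had a median of 0.30 in dKO cells. Complex II, whose 4 subunits are all nuclear, had 0 members called in the single KOs and 1 lower in dKO cells, SDHD (log2 change −0.23, adjusted p = 0.049).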

How the data were processed

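RNASeq of 12 libraries from MDCKII cells was used. Per the study's methods, stranded mRNA libraries, which hold polyadenylated RNA, were sequenced as single reads. The submitters' processing notes name STAR 2.7.0f, HTSeq 0.9.1, and the CanFam3.1 genome. The annotation release and the treatment of multiply mapped reads are not given in the sources used here. The authors deposited 1 signal value per gene and library, a CPM scaled by edgeR's TMM factor, for 13672 genes. In each library 100% of the values were whole multiples of the smallest step (tolerance 0.01), so the read counts behind the deposited values were recovered. The deposited factors equalled recomputed TMM factors (largest difference 3.04e-11). The design expected plain CPM, and the same test was kept for this scaled CPM.

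Values were tested with limma 3.58.1 in R 4.3.3 (lmFit and trended eBayes) after taking log2(CPM + 1), jointly for the 4 genotypes and 12650 genes, with Benjamini-Hochberg adjustment. Every adjusted p is from this test unless another tool is named, fold changes are on the log2(CPM + 1) scale, and a gene was called at an adjusted p below 0.05. On this scale the changes of low genes are understated. Alternatives were pseudocounts of 0.1 and 5, no filter, CPM without the TMM factor or scaled without the mitochondrial members, edgeR 4.0.16 (quasi-likelihood), DESeq2 1.42.0, only the 2 genotypes compared, the replicate number as a block, each library left out, and no members from 3 chromosomes. The count tests were run on the recovered reads. The steps were tested on simulated data.

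Same-numbered libraries deviated together between CGN-KO and CGNL1-KO cells (correlations 0.179 to 0.632), and the number was used as a block there. CGN-KO 3 correlated more with CGNL1-KO 2 (0.320) than with CGNL1-KO 3 (0.179), so a pairing by number is not established. The choice of this block rests on these correlations alone, as the labels do not say what a number marks.

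The members and lists were chosen with earlier results of these data known. Named were all mitochondrial members, for each comparison the 4 largest called rises and falls among nuclear members without overlap, the members of isoform pairs, PPARGC1A, TFAM, POLRMT, LRPPRC, SLIRP, and the largest called change of each other list. PPARGC1A was not analysed here. The 3 nuclear members with the highest and the lowest level per length were not named, and promoter motifs were not searched, as no transcript lengths or sequences were used here. Further called members, the neighbours of NDUFB4, and ATP5A1 and ATP5B were named after their values were seen. Plots were drawn with matplotlib 3.10.9.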

Additional observations from a re-analysis of the deposited data

Results flagged for a closer look

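Members whose effect differed between the single KOs by the direct limma comparison of CGN-KO with CGNL1-KO cells are singled out for this difference. The log2 differences (CGN-KO minus CGNL1-KO) were −0.51 for CYTB, −0.44 for ND2, −0.42 for ND4, −0.41 for ND5, −0.25 for ATP5G2, and 0.30 for NDUFB4. All CGN-KO values were below all CGNL1-KO values for CYTB, ND2, ND4, and ATP5G2 and above for NDUFB4, and those of ND5 overlapped. The calls for ND2, ND4, and ND5 were lost without CGN-KO 2, CGN-KO 3, or CGNL1-KO 3 and in a fit of only these 2 genotypes, and that for ND4 also without the unnumbered dKO library or dKO 2. Those for CYTB, ATP5G2, and NDUFB4 held in all 16 alternatives run for each, the replicate number as a block among them. Groups of 3 libraries are too small for a test of single outlying libraries.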

How the results depend on the processing

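Of the summary values under alternatives, 248 kept their direction and call or size, 20 lost a call or size, 7 gained one, and 2 moved. Leaving out 1 library of the genotypes compared gave 7 to 17 members called for CGN-KO (14 with all libraries), 2 to 3 for CGNL1-KO (5), 9 to 15 for dKO (18), 3 to 12 between CGN-KO and CGNL1-KO (6), and 13 to 26 across the 4 genotypes (23). It gave 0 to 1 members past the 2-fold threshold in CGN-KO cells (0, with CYTB passing without CGN-KO 1). A fit of only the 2 genotypes compared gave 3 members in CGNL1-KO, 29 in dKO, and 3 between CGN-KO and CGNL1-KO cells, and CPM without the TMM factor gave 3 in CGNL1-KO cells. DESeq2 called 10 members between CGN-KO and CGNL1-KO cells. The replicate number as a block gave 10 there with the 11 numbered libraries and 22 with the CGN-KO and CGNL1-KO libraries only, a setting chosen after seeing the data. The block over numbered libraries gave 18 members against WT for CGN-KO, 5 for CGNL1-KO, and 19 for dKO. In the other pairs of genotypes some same-numbered libraries did not deviate together (correlations −0.235 to 0.373), so their number was read only as a name. Between WT and CGNL1-KO cells these correlations were 0.011 to 0.371. The median nuclear difference between CGN-KO and CGNL1-KO cells was −0.023, and it was 0.022 without the TMM factor and −0.040 to 0.0022 with 1 library left out. For single members called, 542 values kept their call, 109 lost it with the same direction, and 0 reversed. CYTB kept its call in every comparison and alternative. The cause of these changes was not tested, apart from the smaller number of libraries when 1 is left out. All alternatives listed were run. Counting error was small beside the spread between libraries for mitochondrial members, which had at least 2246 reads each.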

Other observations

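Electron carriers and mitochondrial proteins outside the complexes were also counted. Of 5 electron carriers and further respiratory genes, 0 passed the test in the single KOs, and ETFB, a subunit of the electron transfer flavoprotein, rose in dKO cells (log2 change 0.36, adjusted p = 0.0058), where it lies on the chromosome of MYH14. Of 17 genes tested for mitochondrial membrane proteins, import, and the citric acid cycle, 1 rose in CGN-KO (MDH2, malate dehydrogenase, 0.21, adjusted p = 0.042), 1 in CGNL1-KO (FH, fumarase, 0.19, adjusted p = 0.021), and 3 in dKO cells, led by TOMM40, the import channel of the outer membrane (0.35, adjusted p = 0.044), which also lies on the chromosome of MYH14. In each genotype 0 of the 17 fell. Of all genes tested, 11.2%, 6.81%, and 14.8% were called higher and 7.87%, 3.49%, and 11.5% lower in CGN-KO, CGNL1-KO, and dKO cells, so the rises in dKO cells were near the background.

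In the other lists, the largest called changes of ribosomal protein genes were those of MRPL14 in CGN-KO and CGNL1-KO cells (log2 changes 0.23 and 0.33), MRPS22 in CGN-KO cells (−0.34), and MRPS12 and MRPL1 in dKO cells (0.46 and −0.29), MRPS12 lying on the chromosome of MYH14. Among assembly factors they were NDUFAF4 (−0.40, complex I) and COX18 (−0.28, complex IV) in CGN-KO, PET117 (0.53, complex IV) in CGNL1-KO, and COX11 (−0.33, complex IV) and UQCC3 (0.33, complex III) in dKO cells. UQCC3 lies on the chromosome of CTNND1, and its dKO values overlapped with WT. TMEM70, which serves assembly of ATP synthase, fell in CGN-KO and dKO cells (−0.23 and −0.27).

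Of 18 genes in pairs or sets of isoforms, 8 were listed and 7 tested. COX8A was called against WT as given above, and ATP5G2 only between CGN-KO and CGNL1-KO cells. NDUFA4, COX4I1, COX7A2L, ATP5G1, and ATP5G3 passed the test in no comparison with WT, and COX4I2, on the chromosome of MYL9, was under the filter. In the fit without the filter COX4I2 was called in CGN-KO cells, at 0.741 to 1.06 CPM against 0.239 to 0.471 CPM in WT.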
